A study of Mus musculus with 32 samples.

Results

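The transcripts described here are the RNAs of 10 immediate early genes, Egr1, Fos, Fosb, Fosl2, Jun, Junb, Jund, Ier2, Ier3 and Atf3, as RADICL-seq captured them on chromatin. They were chosen by name, through the Ensembl identifier of the RNA tag, from 17784 transcripts that have at least 1 listed interaction. An interaction is a sequenced molecule that carries an RNA tag and the DNA tag to which it was ligated. Of the 10 genes, 9 had interactions, 5971 of 25231081 in the 15 libraries, and Ier3 was listed at 0 in every library. The first cell line was R08, a male mouse embryonic stem cell line grown with LIF and fetal bovine serum (mESC). It was fixed with 1% formaldehyde (1FA, 3 libraries), with 2% formaldehyde (2FA, 3 libraries), or with 1% after actinomycin D (ActD4, 2 libraries). Actinomycin D, an inhibitor of RNA polymerase II elongation, was given at 5 µg/ml for 4 hours. In a further 2 mESC libraries fixed with 1% formaldehyde, proteinase K and reversal of the crosslinks preceded RNA ligation, which removes contacts held by protein (NPM, non-protein-mediated). Oli-neu, an oligodendrocyte progenitor line (mOPC) grown with bFGF and PDGF-BB, gave 3 1FA and 2 NPM libraries. Each cell type is thus 1 line. The cells of all groups were detached with trypsin and fixed in suspension, and replicates were batches of different passage number.

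Immediate early genes are transcribed within minutes of a signal, without new protein synthesis, when kinases of the MAPK pathway activate factors already bound at their promoters. FOS and JUN proteins pair through leucine zippers to form AP-1, ATF3 is a related zipper protein induced by stress, EGR1 is a zinc finger activator, IER2 is a nuclear protein of the early response, and IER3 acts on cell survival. Many of these genes are short, and their mRNAs decay quickly. Serum and PDGF are both classic inducers of the family.

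Values are CPM, the interactions of a gene scaled to 1e6 listed in the same library. The authors listed only pairs of a transcript and a 25-kb DNA bin that passed their test on the pooled replicates, and the smallest pair listed for any member held 7 interactions. A gene listed at 0 may therefore still have been captured, and a fitted difference that involves a group at 0 depends on the prior count and is no bound. Zeros in all libraries of a group come from 1 pooled listing and have no spread. A p-value against such a group is therefore not read as strength of evidence. The libraries held 251802 to 418781 interactions in mESC ActD4, 434610 to 608994 in mESC NPM, 1190366 to 1272653 in mOPC NPM, and 1998951 to 2832717 in the 1FA and 2FA groups. The marker genes went with the labelled lines in the 1FA libraries. All 8 tested of 10 stem cell markers were lower in mOPC and all 5 tested of 10 progenitor markers were higher. Of all transcripts, 42.9% were lower and 35.1% higher. Esrrb and Zfp42 were listed at 0 in mOPC 1FA and Cntn1 at 0 in mESC 1FA. A marker can pass the filter on low counts through its own line alone, so these directions were partly set in advance. Few genes of the other marker lists were tested. Of 2 genes each, mature oligodendrocytes and neurons had 1 higher and 1 lower. Astrocytes had 1 lower of 2 and germ layers 2 lower of 2. The neuronal gene Map2 was higher in mOPC 1FA (log2 fold change 5.97). Gata4, a germ layer gene, was captured in mESC 1FA and listed at 0 in mOPC 1FA.

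Sequence at the start sites is shown for the genes whose promoter held a match to the core of the cyclic AMP response element, TGACG, bound by factors of the CREB and ATF type. RefSeq promoter sequence (build GRCm38.p6, 250 bases before to 50 after the start) was at hand for 8 members, all but Egr1 and Ier2, and was searched on both strands. TGACG was present in 4 of the 8, Fos, Fosb, Junb and Atf3, and in 20.8% of all 32851 promoters. TATAA, the centre of the TATA box, was present in 3 of the 8 (Fos, Junb and Ier3) and in 24.9% of all. Each window below runs 5′ to 3′ on the strand of the gene, with the match in capitals. The windows lie at chr12:85473812-85473841 and chr12:85473845-85473874 (plus strand, 66 and 33 bases before the Fos start, which has a second TGACG at 129 bases that is not printed), chr7:19310088-19310117 (minus strand, 60 bases before the Fosb start), chr8:84978837-84978866 (minus strand, 106 bases before the Junb start) and chr1:191183323-191183352 (minus strand, 7 bases before the RefSeq start of Atf3).
Fos, TGACG: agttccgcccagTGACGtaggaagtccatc
Fos, TATAA: tcacagcgcttcTATAAaggcgccagctga
Fosb, TGACG: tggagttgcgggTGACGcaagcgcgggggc
Junb, TGACG: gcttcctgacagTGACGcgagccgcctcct
Atf3, reverse of TGACG: ttaatagcattaCGTCAgcctgggattggt
The whole element TGACGTCA was in none of the 8 windows and in 1.79% of all promoters. The AP-1 site TGACTCA was likewise in none of the 8 and in 5.2% of all, and the serum response element was in none of the 8 and in 1.63% of all. Sequence further than 250 bases before a start was not searched, so these absences hold for the windows only and not for the genes. These are matches of letters, and no binding was measured.

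**Figure D1:**
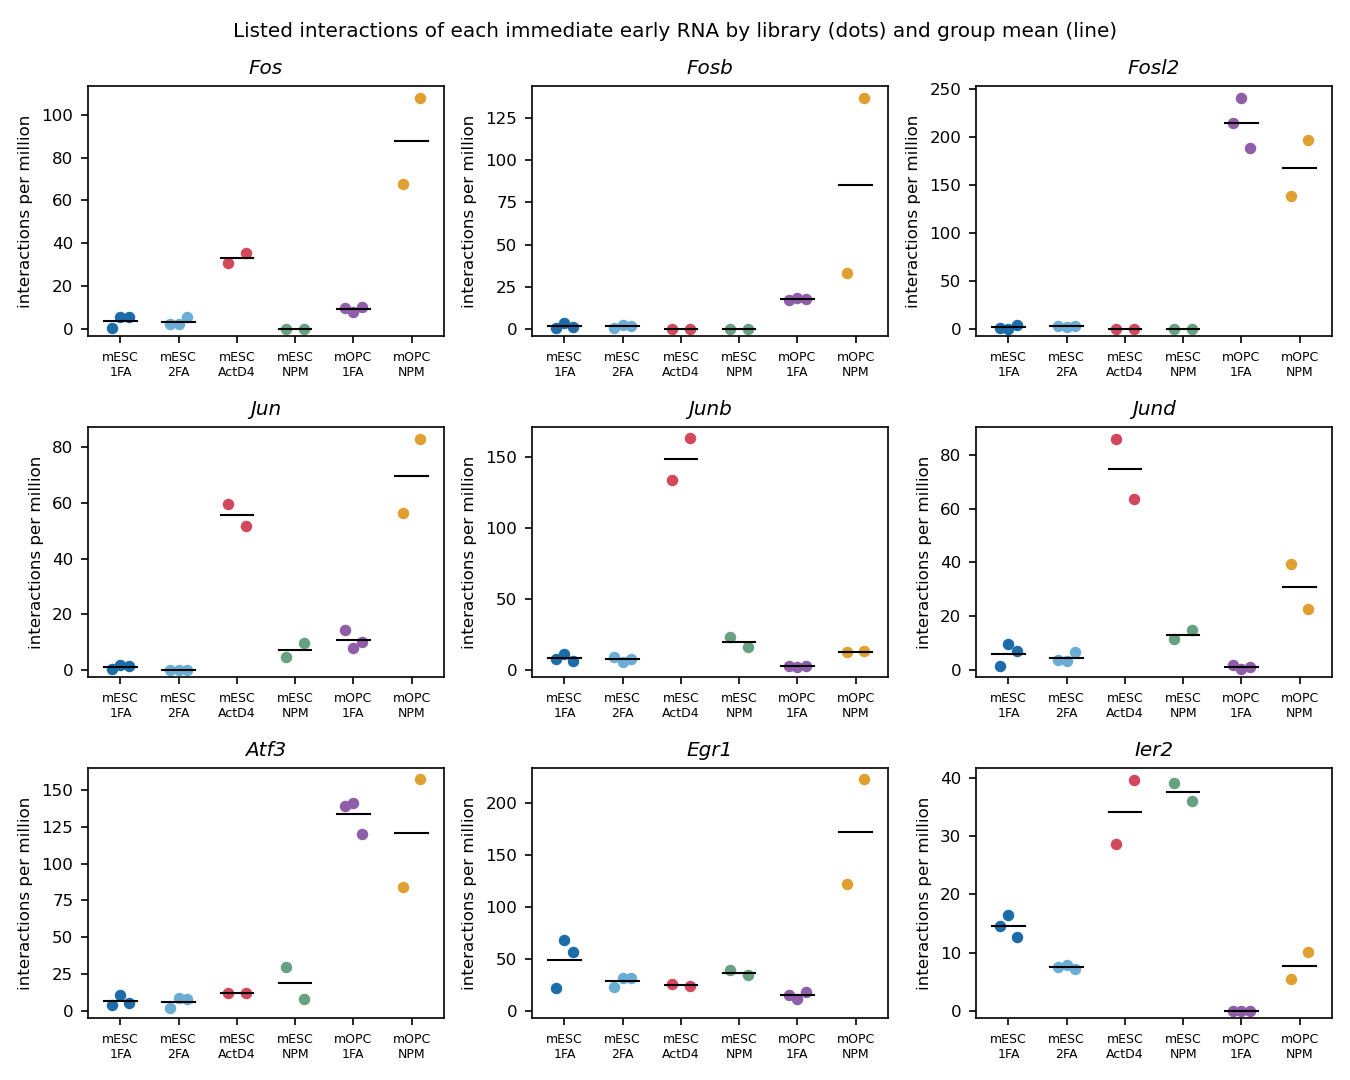
Listed interactions of 9 immediate early RNAs in CPM (vertical axis, 1 panel per gene, each with its own scale) in the 6 groups. Points are libraries and lines are group means. Fosl2 and Atf3 stand highest in the mOPC libraries, Junb and Jund in mESC ActD4, and Egr1 and Fos in mOPC NPM.

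The cell lines were compared in their 1FA libraries. Of the 10 genes, 8 had enough interactions for a test and were called, 5 higher and 3 lower in mOPC, where 77.9% of all 10007 transcripts were called, 35.1% higher and 42.9% lower. The unscaled CPM of the groups did not overlap for any of the 8, nor for 82.8% of all transcripts. Of the 8, 7 passed the filter on low counts only through the line in which they were higher, Egr1 being the exception, so the number called is not read as a result on the family. The median log2 fold change was 2.96 over the 8 members and −0.2 over all transcripts, and for the same reason it is not read as a result on the family. The higher genes were the 3 FOS family genes, Jun and Atf3, and the lower ones were Egr1, Junb and Ier2.

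Among the FOS family, Fosl2 (chr5:32135801-32157842, plus strand, mm10), which encodes FRA2, went furthest. It had 1.12, 0.41 and 3.88 CPM in the mESC 1FA libraries and 215, 241 and 189 in those of mOPC 1FA. The groups lay far apart, with a log2 fold change of 7.62 (SE 0.594, limma adjusted p = 7.27e-06), which was 6.99 when mESC 1FA replicate 2 was left out and 8.3 when replicate 3 was. In bulk libraries such a difference cannot tell more transcripts per cell from more cells that hold them. Fosb (chr7:19302696-19310051, minus strand) had 0.375, 3.69 and 1.41 CPM in mESC 1FA and 17.2, 18.5 and 17.5 in mOPC 1FA, with no overlap and a log2 fold change of 4.00 (SE 0.585, limma adjusted p = 0.000348), which was 3.32 when mESC 1FA replicate 1 was left out and 4.63 when replicate 2 was. Fos (chr12:85473890-85477273, plus strand) had 0.375, 5.73 and 5.65 CPM against 9.95, 8.07 and 10.5. The mOPC libraries were again the higher, but the gap was narrower, at a log2 fold change of 2.29 (SE 0.808, limma adjusted p = 0.0303), and without mESC 1FA replicate 1, which held 1 Fos interaction, it was 1.21 (limma adjusted p = 0.00426). The Fos call was lost with scaling to the library total (1.82, adjusted p = 0.0741), with that total less Malat1 and Gm22973 (1.92, adjusted p = 0.0629) and without any 1 of the mOPC 1FA libraries (adjusted p 0.0632 to 0.0763).

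The JUN family split. Jun (chr4:95049034-95052222, minus strand) had 0.375, 1.64 and 1.41 CPM in mESC 1FA and 14.5, 8.07 and 10.0 in mOPC 1FA, a log2 fold change of 3.62 (SE 0.434, limma adjusted p = 0.000107). Junb (chr8:84974484-84978718, minus strand) ran the other way, at 7.5, 11.5 and 6.35 CPM in mESC 1FA and 2.71, 2.37 and 3.0 in mOPC 1FA (log2 change −1.05, SE 0.259, limma adjusted p = 0.0061). Neither gene overlapped between the lines. Jund (chr8:70698949-70700616, plus strand), the family member that many cells express without stimulation, had too few interactions for a test, 4, 24 and 20 in mESC 1FA and 4, 1 and 2 in mOPC 1FA.

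Atf3 (chr1:191170296-191218039, minus strand) was the second gene far above the stem cells. It had 4.12, 11.1 and 5.65 CPM in mESC 1FA and 139, 141 and 120 in mOPC 1FA, a log2 fold change of 4.84 (SE 0.322, limma adjusted p = 2.64e-06). Egr1, on chromosome 18, was lower in mOPC, with 15.4, 11.4 and 18 CPM against 21.7, 68.4 and 56.5. Its mESC libraries were uneven, and the log2 fold change of −1.06 (SE 0.403, limma adjusted p = 0.0402) lost its call with voom weights (adjusted p = 0.0809) and without 5 of the 6 libraries in turn (−1.17 to −0.76, adjusted p 0.0587 to 0.16). Ier2 (chr8:84661331-84662852, minus strand) was even in mESC 1FA, at 14.6, 16.4 and 12.7 CPM, and was listed at 0 in all 3 mOPC 1FA libraries (limma adjusted p = 3.69e-09). As these zeros come from 1 pooled listing and have no spread, that p-value is not read as strength of evidence.

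Neighbouring transcripts moved with some of these genes. The 103 other transcripts tested within 5 Mb of Fosl2 had a median log2 fold change of 2.45 in mOPC 1FA, 75 of them called higher and 18 lower, against a median of −0.2 for all transcripts and 0.04 for chromosome 5. For other genes the whole chromosome was shifted too. Atf3 lay in a region with a median of 0.9 (31 transcripts) on a chromosome with 0.63, Fosb in one of −1.36 (43 transcripts) on a chromosome with −0.94, and Junb and Ier2 in regions of −1.08 (70 and 72 transcripts) on a chromosome with −1.41. The medians near Fos, Jun and Egr1 were −0.28, −0.15 and 0.15. The part of the region in each gene's difference was not tested.

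**Figure D2:**
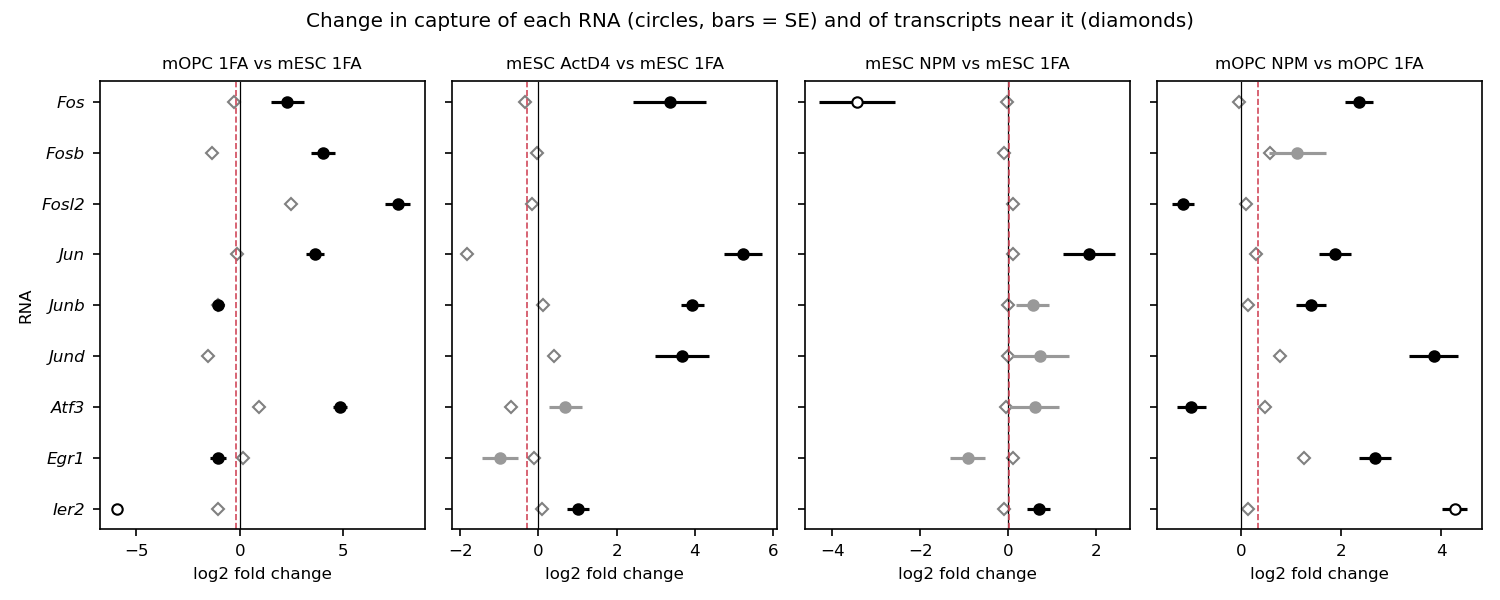
Log2 fold change of each RNA (circles, bars are standard errors) in 4 comparisons, 1 per panel with its own horizontal scale. Black circles were called, grey ones were not, and open circles have a group listed at 0, so that their position is no bound. Diamonds are medians of the other transcripts within 5 Mb and the dashed line is the median of all transcripts tested. Fosl2 and its neighbourhood both lie to the right in mOPC, while Jun, Junb, Jund and Fos lie well to the right of their neighbourhoods in ActD4.

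The high capture of Fosl2 and Atf3 in mOPC 1FA came with a wide spread over DNA. Fosl2 RNA was listed in 2 bins in mESC 1FA (15 interactions) and in 52 bins in mOPC 1FA (1362 interactions), 48 of them seen in all 3 libraries. The bin at the gene start (chr5:32125001-32150000) held 243 interactions and the next one 177. The median distance between the tags was 168483, 161059 and 168662 bases in the 3 mOPC libraries, so the spread was alike in each. Of the 1362 interactions, 699 reached 100 kb to 1 Mb and 60 reached beyond 1 Mb.

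The bins were unevenly placed, 37 of the 52 starting below the gene in coordinate. A second rise stood at chr5:31600001-31625000, at −534 kb from the gene centre, with 51 interactions over Mrpl33 and Rbks. On the other side, 37 interactions reached Ppp1cb at 316 kb. Of the 7 bins beyond 1 Mb, 3 lay over Lhfpl3 and 1 over Srpk2, more than 8 Mb away, with 8 or 9 interactions each, close to the least that was listed. The most frequent of the 7, chr5:23400001-23425000, held 11 in all 3 libraries (adjusted p of the pair 8.77e-05). Bins are listed only where enough RNA was captured, so a gene with few interactions cannot show such a spread.

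Atf3 RNA was listed in 3 bins in mESC 1FA and 24 in mOPC 1FA, 22 of these in all 3 libraries. They covered 0.95 Mb, out to 593 kb from the gene centre, with median distances of 57878, 64667 and 60168 bases in the 3 libraries. Outside the gene, the most frequent bins lay at 93, 68 and 43 kb from its centre, with 55, 52 and 51 of the 845 interactions and no protein-coding gene. The bin over Nsl1 and Batf3, which encodes another zipper partner of JUN, held 40, and that over Nenf held 32.

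**Figure D3:**
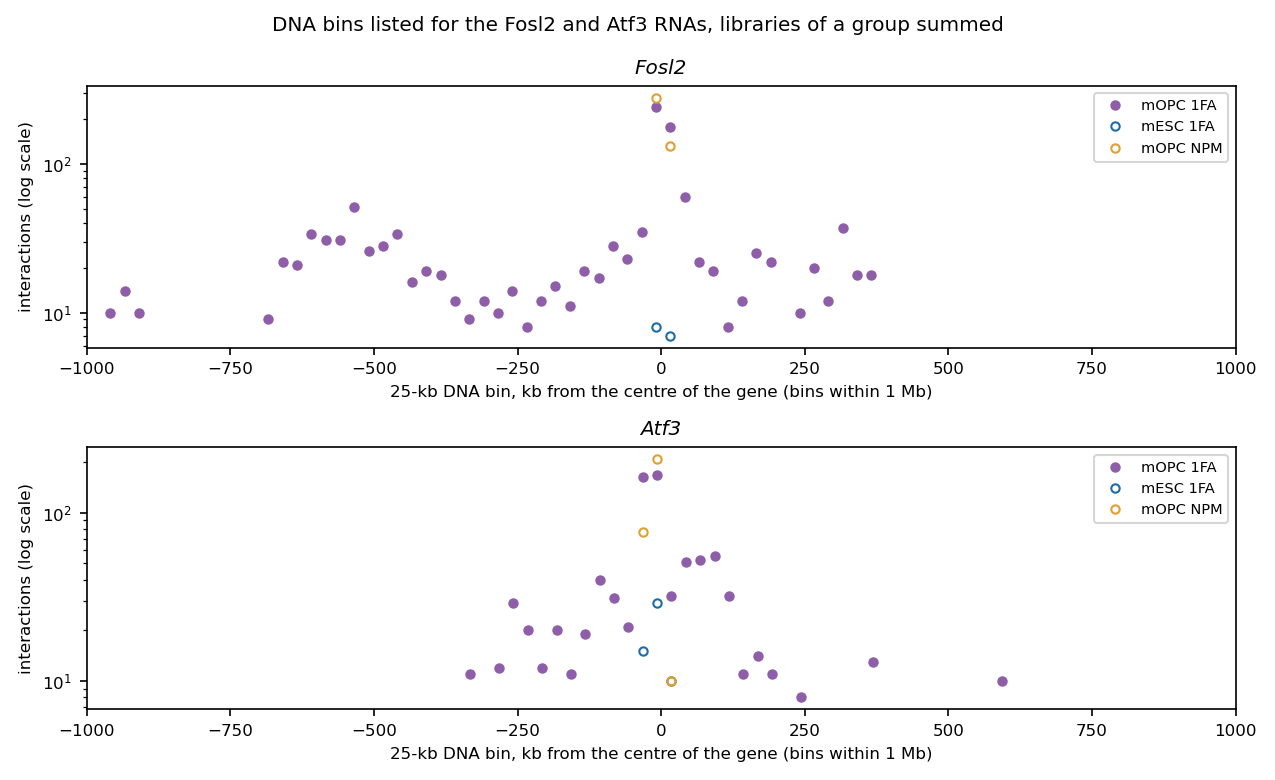
Interactions (vertical axis, log scale) of Fosl2 RNA (top) and Atf3 RNA (bottom) in 25-kb DNA bins, by distance of the bin centre from the gene centre, libraries of a group summed. Fosl2 in mOPC 1FA shows 51 interactions at −534 kb, while the mESC 1FA and mOPC NPM bins of both genes stay at the gene. Bins beyond 1 Mb are not drawn.

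Actinomycin D was used in the study to see how stable contacts are when elongation by RNA polymerase II is blocked. Whether a higher CPM after it means RNA that was retained was not tested. Of the 7 members tested, 5 were called, all 5 higher in ActD4, where 62.1% of all transcripts were called, 21.5% higher and 40.6% lower. Without the filter on low counts 7 were called, the added Fosb and Fosl2 being lower, at 0 in ActD4. Jun passed the filter only through ActD4. The CPM of the groups did not overlap for 6 of the 7 and for 74.9% of all transcripts. The median log2 fold change was 3.36 over the 7 members and −0.29 over all transcripts. It leaves out Fosb and Fosl2 and is not read as a result on the family. All 3 JUN genes and Fos showed the largest differences.

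Junb had 134 and 163 CPM in the ActD4 libraries, against 7.5, 11.5 and 6.35 in mESC 1FA (log2 change 3.94, SE 0.297, limma adjusted p = 1.86e-05). Jun had 59.7 and 51.6 CPM against 0.375, 1.64 and 1.41 (5.24, SE 0.488, limma adjusted p = 6.6e-05). Jund had 86.0 and 63.5 CPM against 1.5, 9.83 and 7.06 (3.67, SE 0.697, limma adjusted p = 0.0031). No JUN gene overlapped between the groups, and Jund was at 2.91 without mESC 1FA replicate 1. The CPM is relative to a shorter list. The interactions themselves were 56 and 41 against 20, 28 and 18 for Junb, 25 and 13 against 1, 4 and 4 for Jun, and 36 and 16 against 4, 24 and 20 for Jund. They were 13 and 9 against 1, 14 and 16 for Fos and 12 and 10 against 39, 40 and 36 for Ier2, so that Junb and Jun alone of the 5 had more in each ActD4 library than in any of mESC 1FA.

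Fos had 31.0 and 35.7 CPM in ActD4 (log2 fold change 3.36, SE 0.932, limma adjusted p = 0.0166) and Ier2 28.7 and 39.7 (1.01, SE 0.273, limma adjusted p = 0.0148), both above every mESC 1FA library, and without mESC 1FA replicate 1 Fos was at 2.3 (limma adjusted p = 0.00361). Fosb and Fosl2 were listed at 0 in both ActD4 libraries and were not tested. Egr1 had 26.3 and 23.8 CPM and Atf3 11.9 and 11.9, and neither passed the test (log2 fold change −0.99, limma adjusted p = 0.0989, and 0.69, limma adjusted p = 0.2). The Ier2 call was lost for interactions beyond 1 kb (0.69, adjusted p = 0.113) and without mESC 1FA replicate 1 or 3 (adjusted p = 0.0511 and 0.0618). Egr1 was called lower in a fit of all 15 libraries (adjusted p = 0.0341) and without mESC 1FA replicate 1 (−1.48, adjusted p = 0.00442).

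The position of the RNA tags along the gene was compared as well. On a scale from 0 at the start to 1 at the end of the gene, the mean tag position of Egr1 was 0.511, 0.545 and 0.549 in the mESC 1FA libraries and 0.32 and 0.304 in ActD4. The difference of −0.223 (SE 0.0206, limma adjusted p = 0.00304) exceeded the median of −0.098 over the 5975 transcripts tested. Junb moved from 0.283, 0.408 and 0.433 to 0.204 and 0.172 (difference −0.186, SE 0.0496, limma adjusted p = 0.0282). Ier2 moved from 0.406, 0.551 and 0.453 to 0.333 and 0.316 (−0.145, SE 0.0454, limma adjusted p = 0.0439). These 3 genes were the only members with at least 5 tags in every library, and all 3 were called nearer the start. Of all transcripts, 54.9% were called, 53.6% nearer the start and 1.36% nearer the end. The calls of Junb (adjusted p 0.055 to 0.087) and Ier2 (0.0551 to 0.114) were each lost without 4 of the 5 libraries in turn, mESC 1FA replicate 1 being the exception. The Junb model joins transcripts that do not overlap, Junb-201 at the start with 36 of 66 tags in mESC 1FA and 88 of 97 in ActD4, and Junb-202 with 19 of 66 and 7 of 97. The shorter annotated transcript of Egr1 starts further along the gene. It held 384 of 385 Egr1 tags in mESC 1FA and 13 of 17 in ActD4. For Junb and Egr1, a change of transcript and a shift along 1 transcript were not tested apart. Among the genes with too few tags for the test, the mean went from 0.252 to 0.184 for Fos, 0.34 to 0.214 for Jun, 0.305 to 0.238 for Jund and 0.722 to 0.733 for Atf3.

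By annotated region, in ActD4, 29 of 38 Jun tags lay in the 5′ UTR, and 23 of 97 Junb tags lay in the 5′ UTR and 57 in coding sequence. Of 17 Egr1 tags, 9 lay in the 5′ UTR, against 31 of 385 in mESC 1FA. The DNA reached was wider for Junb and Jund. Junb was listed in 5 bins with a median distance of 9962 bases, against 3 bins and 2096 bases in mESC 1FA, and Jund in 4 bins with 10597 bases, against 2 bins and 1820. The median distance of Jun was much the same, at 631 bases in 2 bins against 555 in 1 bin. Egr1 and Ier2 were listed in 1 bin each, with 17 and 22 interactions against 385 and 115 in mESC 1FA. Such counts leave little room for a second listed bin, so this is not read as a narrower reach.

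**Figure D4:**
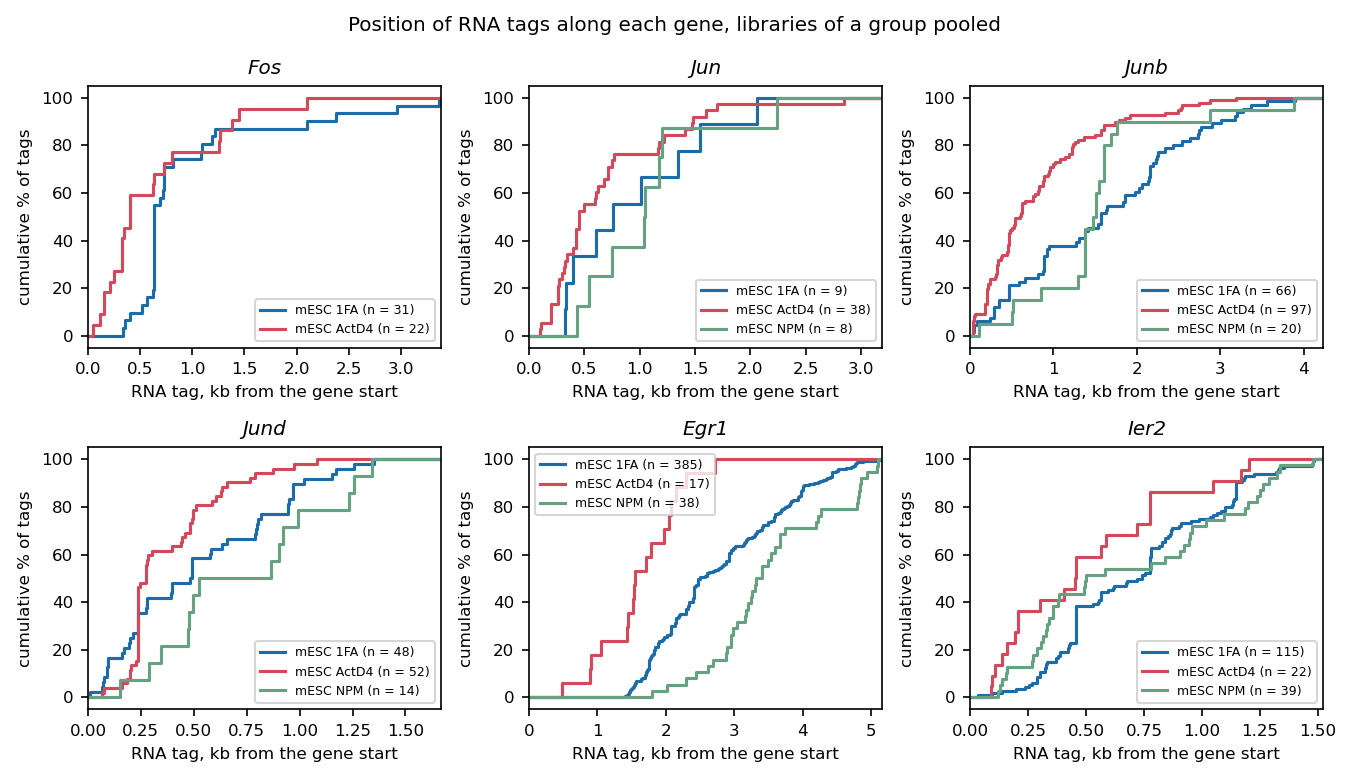
Cumulative percentage of RNA tags (vertical axis) along each gene in kb from its start (horizontal axis), libraries of a group pooled, for mESC 1FA, ActD4 and NPM. The number of tags is in each legend. The ActD4 curve of Junb, with 97 tags, and that of Egr1, with 17, rise nearer the start than those of mESC 1FA.

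Some positions recurred. A single Fos position, in the intron 630 bases from the start, carried 22 of its 352 tags in 7 libraries and 5 groups, and a single Jund position in the coding sequence carried 23 of its 230 tags in 8 libraries. The 30 bases around each (chr12:85474505-85474534 and chr8:70699170-70699199, both plus strand, RefSeq build GRCm38.p6) are shown because no other position of these genes carried as many tags, with the tag centre in capitals.
Fos, intron: caaaccgcggcaatcCcccctcccggggca
Jund, coding: gcgctttccccggggCgcccccgacgagca
G and C made up 73.3% of the Fos window and 80.0% of the Jund window. Molecules with identical RNA and DNA positions had been merged within each library.

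The strength of fixation was compared in mESC to ask whether capture depends on crosslinking. None of the 6 members tested was called between 2FA and 1FA, where 0.0305% of all transcripts were, 0.0203% higher and 0.0102% lower. At an unadjusted p under 0.05 stood 1 of the 6 members and 11.6% of all transcripts. That member was Ier2, with 7.58, 7.86 and 7.16 CPM in 2FA, below every 1FA library (log2 change −0.97, SE 0.242, limma adjusted p = 0.181), where 18% of all transcripts had groups that did not overlap. The replicate numbers paired these libraries, and with the replicate as a block Ier2 was called (−0.97, limma adjusted p = 0.0285), as was Egr1 (−0.65, limma adjusted p = 0.0387). With the block 481 of all 9837 transcripts were called, against 3 without it. Egr1 had 23.2, 31.4 and 32.2 CPM in 2FA, each below the 1FA library of its number except replicate 1 (21.7 in 1FA). Jun was listed at 0 in all 3 2FA libraries, where 1FA had 1, 4 and 4 interactions. The other 4 tested differed by −0.26 (Atf3), −0.17 (Jund), −0.14 (Junb) and 0.26 (Fos), and each changed sign when 1 library or another was left out. Fosb and Fosl2 had too few interactions for the test.

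Removal of protein was compared with 1FA in each line. In mOPC, 8 of the 9 members tested were called, 6 higher and 2 lower in NPM, where 56.1% of all transcripts were called, 32.3% higher and 23.8% lower. The CPM did not overlap for 7 of the 9 and for 81.1% of all. Junb, Jund and Ier2 passed the filter only through mOPC NPM. The median was 1.88 over the 9 members and 0.34 over all, and because of these 3 genes it is not read as a result on the family. In mESC, 3 of 7 were called, 2 higher and 1 lower, where 53.2% of all transcripts were called, 24.8% higher and 28.4% lower. The CPM did not overlap for 5 of the 7 and for 74.3% of all. Jun and Fos passed the filter only through the group in which they were higher. The median, 0.61 over the 7 members and 0.03 over all, is likewise not read as a result on the family.

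In mOPC NPM, Egr1 had 122 and 223 CPM against 15.4, 11.4 and 18 in mOPC 1FA (log2 change 2.68, SE 0.314, limma adjusted p = 0.000639). Jund had 39.3 and 22.7 CPM against 1.81, 0.474 and 1.0 (3.85, SE 0.493, limma adjusted p = 0.000964). Fos had 67.6 and 108 CPM against 9.95, 8.07 and 10.5 (2.36, SE 0.285, limma adjusted p = 0.000737). These groups did not overlap, nor did those of Jun (1.88, limma adjusted p = 0.00344) and Junb (1.4, limma adjusted p = 0.00801). Ier2, at 0 in mOPC 1FA, was listed with 5.5 and 10.1 CPM in mOPC NPM (limma adjusted p = 1.72e-05). For interactions beyond 1 kb the Jun difference was 0.01 (limma adjusted p = 0.992). As 168 of its 171 mOPC NPM interactions lay within 1 kb, that value rests on very few and is not read. The Jun call was lost without mOPC NPM replicate 2 (1.56).

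The widely spread genes ran the other way. Fosl2 had 138 and 197 CPM in mOPC NPM and Atf3 84.1 and 157, which overlap their mOPC 1FA values, and after TMM scaling both were called lower (−1.17, SE 0.219, limma adjusted p = 0.00494, and −1, SE 0.287, limma adjusted p = 0.025). With scaling to the library total these were −0.38 (adjusted p = 0.0979) and −0.21 (adjusted p = 0.475), and without mOPC NPM replicate 1 −0.87 (adjusted p = 0.0583) and −0.51 (adjusted p = 0.113). Both calls were also lost in a fit of all 15 libraries (adjusted p = 0.0564 and 0.113), and that of Atf3 without mOPC 1FA replicate 1 or 2 (adjusted p = 0.0576 and 0.0565). Fosb had 33 and 137 CPM, uneven between its libraries (1.12, limma adjusted p = 0.138). Without mOPC NPM replicate 1 it was 2.18 (adjusted p = 0.00474) and without replicate 2 0.06 (adjusted p = 0.884), each resting on the 1 NPM library left, which is assumed to vary like the 1FA group. It was called with scaling to the total (1.91, adjusted p = 0.0185) and beyond 1 kb (1.8, adjusted p = 0.0343).

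In mESC NPM, Ier2 had 39.1 and 36.1 CPM against 14.6, 16.4 and 12.7 in mESC 1FA (0.7, SE 0.265, limma adjusted p = 0.0475) and Jun 4.6 and 9.85 (1.84, SE 0.594, limma adjusted p = 0.0244). The CPM is relative to a shorter list. The interactions themselves were 17 and 22 against 39, 40 and 36 for Ier2, and only 2 and 6 against 1, 4 and 4 for Jun. Fos was listed at 0 (limma adjusted p = 0.00773), as were Fosb and Fosl2, which were not tested. Egr1 had 39.1 and 34.5 CPM (−0.92, limma adjusted p = 0.073), and Junb, Jund and Atf3 differed by 0.56, 0.74 and 0.61 and were not called, though Junb was with scaling to the library total (1.22, adjusted p = 0.0208). Jund was at 0.02 without mESC 1FA replicate 1 and at 1.24 without replicate 2. The Ier2 call was lost without any 1 of the 5 libraries (adjusted p 0.0847 to 0.14), and those of Jun and Fos without 2 libraries each: Jun without mESC 1FA replicate 1 (1.37, adjusted p = 0.0512) or mESC NPM replicate 2 (1.3, adjusted p = 0.183), Fos without either NPM library (adjusted p 0.0947 and 0.0886). Fos was not called with voom weights either (adjusted p = 0.0842), and Egr1 was called lower without mESC 1FA replicate 1 (−1.37, adjusted p = 0.00215). All 38 Egr1 and all 20 Junb interactions of mESC NPM lay within 1 kb, so a test beyond 1 kb is not read for them.

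The NPM effect differed between the lines for 5 of the 9 members, all 5 upwards. Of all transcripts 35.8% were called, 25% with a larger effect in mOPC and 10.8% with a smaller one. Some members, Fosb among the 5, passed the filter on low counts only through mOPC, so the number called is not read as a result on the family. It was larger in mOPC for Egr1, by 3.46 on the log2 scale (SE 0.63, limma adjusted p = 0.00221), and for Jund, by 3.02 (SE 0.992, limma adjusted p = 0.0403). Fos, Fosb and Ier2 were also called, each with a group listed at 0, and the Fosb call was lost with voom weights (adjusted p = 0.083) and without 5 of the 10 libraries in turn (adjusted p 0.0534 to 0.141). Jun (−0.06), Fosl2 (1.18), Junb (0.72) and Atf3 (−1.75) were not called. The Jund call was lost without 8 of the 10 libraries in turn (adjusted p 0.0656 to 0.176).

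Between the NPM libraries of the lines, 8 of 9 members were called, 7 higher and 1 lower in mOPC, where 50.3% of all transcripts were called, 27.4% higher and 22.9% lower. The CPM did not overlap for any of the 9 nor for 79.3% of all. Of the 9, 6 passed the filter only through the line in which they were higher (Fos, Fosb, Fosl2, Jun, Atf3 and Ier2), so the number called is not read as a result on the family. Egr1, lower in mOPC 1FA, was higher in mOPC NPM (2.56, SE 0.352, limma adjusted p = 0.00325), and Jun (3.63), Atf3 (3.23), Jund (1.56) and the 3 FOS genes, at 0 in mESC NPM, were higher too. Ier2 was lower (−1.84, SE 0.414, limma adjusted p = 0.0178). Jund was not called with scaling to the total (1.16, adjusted p = 0.064), and Jund, Ier2 and Atf3 lost their calls without 4, 4 and 2 of the 4 libraries in turn (adjusted p 0.0798 to 0.162, 0.0577 to 0.151, and 0.0808 to 0.143).

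Distances were shorter after protein removal. Of the member interactions, 35.5% to 41.4% lay within 1 kb in the mESC 1FA libraries, 8.35% to 13.8% in mOPC 1FA, 98.4% and 98.6% in mESC NPM, and 94.6% and 91.0% in mOPC NPM. In all interactions the share was 3.8% to 5.52%, 3.73% to 6.99%, 84.4% and 86.2%, and 87.9% and 86.5%. In mOPC 1FA 5.58% of Fosl2 and 9.23% of Atf3 interactions lay within 1 kb, against 46.8% for Egr1, 45.0% for Fos, 39.1% for Jun and 30.4% for Fosb, so that Fosl2 and Atf3 carried the lower pooled share. For genes under 10 kb, as most members are, the median share was 14.1% in mESC 1FA and 15.3% in mOPC 1FA. Fosl2 had 389 of its 410 mOPC NPM interactions within 1 kb, in 2 bins, where mOPC 1FA had 76 of 1362, and Atf3 had 284 of 294 where mOPC 1FA had 78 of 845.

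Egr1 was the only member with at least 10 interactions in each of the 10 1FA and NPM libraries, so its shares alone were tested. Within 1 kb lay 39.0% ± 5.46 (SD, n = 3) of its interactions in mESC 1FA and 100% in both mESC NPM libraries, and 45.0% ± 14 (n = 3) in mOPC 1FA and 89.9% ± 4.29 (n = 2) in mOPC NPM. The mean rise of 52.9 percentage points had an exact permutation p of 0.01 (two-sided, within cell type), the smallest that 100 arrangements can give. The share of tags in its intron was 26.7% ± 3.87 and 21.2% ± 0.881 in 1FA and 10.1% ± 5.94 and 5.35% ± 0.65 in NPM, a difference of −16.2 points (exact permutation p = 0.01, two-sided). Over 5487 transcripts with the same minimum, the median share within 1 kb went from 5.79% to 88.8% in mESC and from 8.8% to 91.7% in mOPC, and the median intron share from 84.6% to 71.7% and from 86% to 71%.

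A single pair joined a member to another chromosome. In mOPC NPM, 13 of the 421 Egr1 interactions, in both libraries, had their DNA tag in chr17:39825001-39850000 (adjusted p of the pair 2.18e-07). That bin is known to hold a copy of the ribosomal RNA repeat in mm10. The remaining interactions of every member were on the chromosome of the gene.

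**Figure D5:**
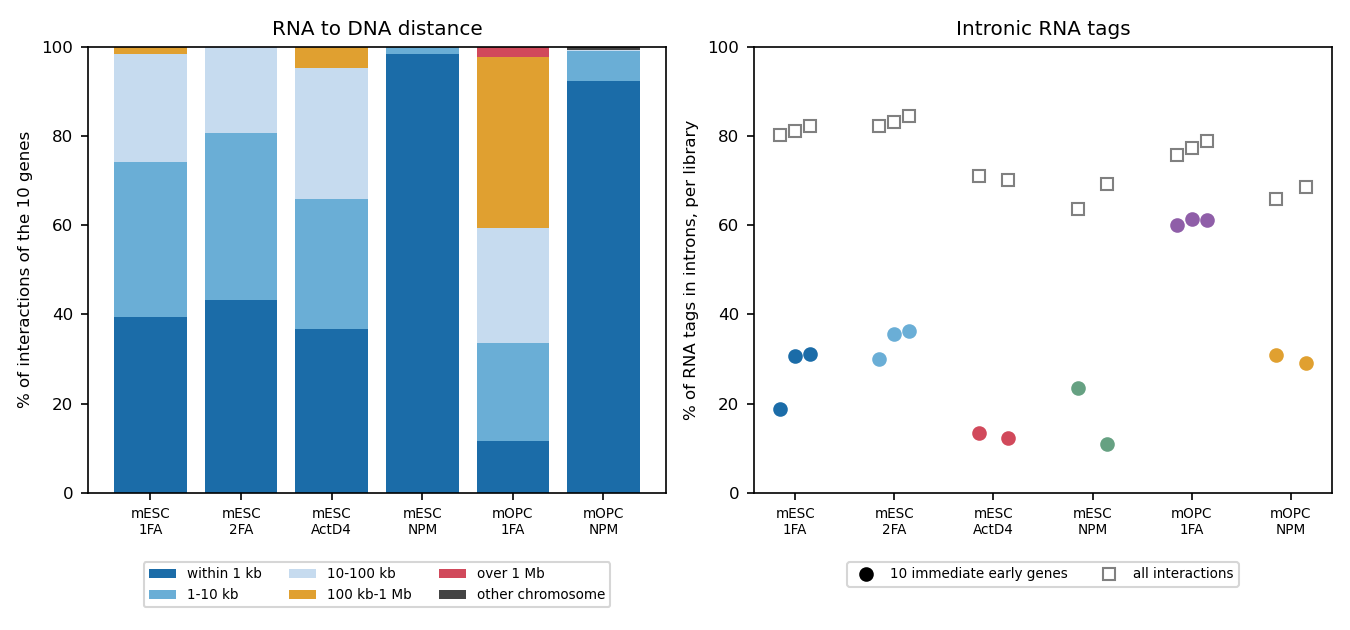
Left, distance between RNA and DNA tags of the 10 genes by group, libraries pooled, as stacked percentages. Right, percentage of RNA tags in introns per library for the 10 genes (filled circles) and for all interactions (squares). The mOPC 1FA libraries, near 60.1% to 61.3% intronic, lie above the other groups of the 10 genes but below all interactions.

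The region of the RNA from which tags came differed by gene. Jun, Jund and Ier2 have no intron. Atf3 had 1120 of 1262 tags in introns, which cannot tell unspliced RNA from excised introns. Of the 1262, 1203 lay within a shorter isoform (chr1:191170296-191183340), whose start is near the RefSeq promoter shown above. That isoform held 836 of 845 tags in mOPC 1FA but 41 of 54 in mESC 1FA, 5 of 8 in ActD4 and 12 of 18 in mESC NPM. Fosl2 had 944 of 1808 tags in introns. Egr1 had 577 of 1152 in coding sequence and 225 in its intron, Fos 140 of 352 in introns, Junb 61 of 285 and Fosb 35 of 341. These counts pool groups that differed. Introns held 71.0% of Fos tags in mESC 1FA and 28.4% in mOPC NPM, and 27.8% and 5.23% of Egr1 tags. In the joined model of Junb, 207 of 285 tags lay in Junb-201 and 59 in Junb-202, and the rest lay in neither. By region, 120 lay in coding sequence, 38 in the 5′ UTR, 49 in the 3′ UTR, 61 in introns and 17 in other exons. Coding sequence and UTRs together held as many tags as Junb-201. The intronic tags of Junb are therefore read as those of the joined model and not of an intron of Junb-201. Over the 10 genes together, introns held 18.8%, 30.6% and 31.2% of tags in the mESC 1FA libraries, 60.1%, 61.3% and 61.1% in those of mOPC 1FA, and 30.8% and 29.2% in mOPC NPM. Fosl2 and Atf3 supplied 1362 and 845 of the 2566 member interactions of mOPC 1FA.

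Per kb of gene length the order of levels changed from group to group. In mESC 1FA, Ier2 (8.35 to 10.8 CPM per kb) and Egr1 (4.21 to 13.3 CPM per kb) were first and did not differ beyond their spread. Jund was next by its mean (0.899 to 5.89 CPM per kb), below Ier2 and overlapping Egr1. Its range also overlapped those of Junb (1.5 to 2.71) and Fos (0.111 to 1.69). In ActD4 Jund (51.5 and 38.1 CPM per kb) and Junb (31.6 and 38.4 CPM per kb) were first and overlapped, followed by Ier2 (18.8 and 26.1 CPM per kb). Junb was divided by its joined model of 4235 bases, but 88 of its 97 tags lay in Junb-201, of 1809 bases. Its level over that transcript would be higher, so the order of Junb and Jund is not read. In mOPC 1FA Fosl2 had 8.58 to 11 CPM per kb, above the other members by their gene models. Atf3 had a mean of 2.79 CPM per kb over the long gene model and 10.2 over the shorter isoform. The order of Fosl2 and Atf3 is therefore not read. In mOPC NPM Egr1 (23.6 and 43.3 CPM per kb), Fos (20 and 32), Jun (17.7 and 26.1) and Jund (23.6 and 13.6) were first, and their ranges overlapped, as did that of Fosb (4.49 and 18.6) with those of Jun and Jund.

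Interactions were also read from the DNA side, as those whose DNA tag fell in a member gene or within 2 kb of its start. At Fosl2, RNA of other genes gave 401 ± 44.2 CPM (SD, n = 3) in mOPC 1FA and 23.9 ± 3.95 (n = 3) in mESC 1FA. The most frequent sources in mOPC 1FA were its neighbour Babam2 (730 of 2531 interactions), the nuclear noncoding RNA Malat1 (298) and Ppp1cb (294). Atf3 showed no such gap, with 30.6 ± 3.88 CPM of other RNA in mOPC 1FA and 34.8 ± 2.39 in mESC 1FA, led by Malat1 (115 of 194) and by Rps6kc1 (61 of 276). At Egr1 other RNA had 22.3 ± 6.25 CPM in mESC 1FA, led by the neighbours Kdm3b and Etf1 (33 and 31 of 175), and 19.4 ± 6.88 in mOPC 1FA, led by Malat1 (43 of 124). These levels were not tested.

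In NPM other RNA was listed at 0 on Egr1, Fos, Fosb and Jund in both lines. Fosl2 in mOPC NPM was the exception in size, with 815 interactions of other RNA beside 409 of its own, 711 of them from other chromosomes and led by Malat1 (210), Neat1 (65) and the mitochondrial ribosomal RNA mt-Rnr1 (38). On Jun, all other RNA in NPM was of its antisense neighbour Junos, 3 interactions in mESC and 11 in mOPC, which strand keeps apart from Jun. Ier3, without listed RNA of its own, received 36 interactions of Flot1 RNA in mOPC NPM and 31 of 6 transcripts in mESC 1FA.

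Other genes of the pathway were followed on fixed lists, whose counts are described beside the shares of all transcripts and were not tested as groups. Among 59 other early response genes, 33 were tested in ActD4, 18 higher and 8 lower with a median of 1.05, against 21.5% higher, 40.6% lower and a median of −0.29 for all transcripts. Spry4 (−2.08, SE 0.138), an inhibitor of receptor kinase signalling, and Tiparp (−1.62, SE 0.153) were lower and Mcl1 (0.51, SE 0.131), a survival factor, was higher (limma adjusted p = 8.81e-06, 7.06e-05 and 0.012). In mOPC against mESC 1FA, 11 of 27 were higher and 14 lower, where all transcripts were 35.1% and 42.9%, among them Maff (3.79, SE 0.194, limma adjusted p = 4.65e-07) and Spry4 (−3.13, SE 0.32, limma adjusted p = 4.06e-05). In NPM, 15 of 35 were higher and 3 lower in mESC, and 16 of 38 higher and 6 lower in mOPC, with medians of 0.85 and 1.42. Of all transcripts, 24.8% were higher and 28.4% lower in mESC NPM, and 32.3% higher and 23.8% lower in mOPC NPM, with medians of 0.03 and 0.34.

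Another list held 22 other genes of zipper proteins and was not limited to partners of FOS and JUN. Of the 22, 17 were tested in mOPC against mESC 1FA, 12 higher and 2 lower with a median of 0.97. Of all transcripts, 35.1% were higher and 42.9% lower. Creb5 (7.37, SE 0.17), Bach2 (2.48, SE 0.111) and Jdp2 (2.07, SE 0.228), which lies near Fos and whose protein represses AP-1, were among the higher (limma adjusted p = 3.86e-09, 1.98e-07 and 6.3e-05). In ActD4 1 of 17 was higher and 9 lower, against 21.5% and 40.6% of all, with Atf2 and Jdp2 at −1.37 each. In mESC NPM 11 of 17 were lower and 1 higher, against 28.4% and 24.8% of all. In mOPC NPM 11 of 18 were lower and 3 higher, against 23.8% and 32.3%, and Creb5 was at −1.7 on the log2 scale (SE 0.208, limma adjusted p = 0.000784).

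Of the 28 kinases and factors upstream, 8 of the 27 tested were higher and 13 lower in mOPC 1FA, near the 35.1% and 42.9% of all transcripts. The kinase genes Rps6ka1 (−4.68, SE 0.159), Rps6ka3 (−2.39, SE 0.192) and Map2k1 (−1.96, SE 0.12) were lower and Mapkapk2 (2.53, SE 0.197) was higher (limma adjusted p = 3.27e-08, 8.68e-06, 1.56e-06 and 7.08e-06). In ActD4 6 of 26 were higher and 7 lower, against 21.5% and 40.6% of all, with Rps6ka3 at −2.46 (SE 0.315, limma adjusted p = 0.000406) and Ep300, a histone acetyltransferase, at 0.9 (SE 0.111, limma adjusted p = 0.00033). In mESC NPM 17 of 27 were lower and 3 higher, against 28.4% and 24.8% of all. In mOPC NPM 13 of 27 were lower and 6 higher, against 23.8% and 32.3%. Map2k2 was at −1.99 and −2.06. Lower calls in NPM depended on scaling. Over all transcripts they fell from 3243 to 1276 in mESC and from 2752 to 750 in mOPC with scaling to the library total. No gene of the 3 lists was called between 2FA and 1FA, where 30, 17 and 26 were tested. That fit did not use the replicate as a block, and the lists were not followed in the fit that did.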

How the data were processed

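RADICL-seq data of 15 libraries in 6 groups were used. Per the labels and the study's methods, the authors split RNA from DNA tags, discarded ribosomal sequence and duplicated read pairs, aligned with BWA 0.7.15-r1140 to mm10, kept mapping quality 37 and assigned RNA to GENCODE M14 genes by strand. The deposited files give, in 32 columns without a header, the RNA and DNA positions of each interaction and the p-value of its pair of transcript and 25-kb bin, computed by the authors. That p-value was identical in 100.0% of pairs shared by replicates, so replicates share 1 list of pairs and their spread is understated. Sequencing depth is not given by these lists, and totals are numbers of listed interactions. No precision interval was computed.

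Interactions were counted per transcript (exact copies once) and symbols taken from GENCODE M21. Log2 CPM (TMM scaling, prior 0.5) were fitted with limma 3.58.1 (R 4.3.3, moderated test with trend, two-sided). P-values were adjusted by Benjamini-Hochberg over all transcripts tested and called under 0.05. A transcript was tested if it had 15 interactions in total and enough CPM in as many libraries as the smaller group holds. Enough was the CPM of 10 interactions in a library of median size, so a small library could pass with fewer. Members low in both groups were therefore not tested, and some passed only through the group where they were higher. Where leaving out a library left 1 in a group, it was assumed to vary like the other group. The p-values measure the spread between batches of cells of 1 line. Mean tag positions were fitted likewise over transcripts with 5 tags in every library, a test added after seeing the data. Shares were compared by exact permutation over libraries within cell type. The planned minimum of 20 interactions was reached by no member, and 10 was used instead. Alternatives were other scalings, filters, priors, counting rules, fits of all libraries, replicate blocks, voom weights (added after seeing the data) and leaving out each library. Replicate numbers paired mESC 2FA with 1FA (correlation of deviations 0.355, 0.183 and 0.323) but not mOPC with mESC 1FA (0.016 to 0.03). Scripts were tested on simulated data.

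The members, gene lists and tests were chosen with earlier results of these data known. Values are given for the members tested or listed in each comparison. From the lists, called genes with a mean of 100 interactions and groups that do not overlap were eligible, up to 5 per list and comparison, and on the DNA side the 3 most frequent sources.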

Additional observations from a re-analysis of the deposited data

Results flagged for a closer look

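The effect of protein removal on capture differed between the lines for 5 genes by the interaction term of limma. On the log2 scale it was larger in mOPC in each. Some members, Fosb among the 5, passed the filter on low counts only through mOPC, so their number is not read as a result on the family. The differences were 3.46 for Egr1, 3.02 for Jund, 5.55 for Fos, 3.51 for Fosb and 3.64 for Ier2. Egr1 and Jund had interactions in all 10 libraries, but the Jund call was lost without 8 of the 10 in turn (limma adjusted p 0.0656 to 0.176) and with the replicate number as a block (limma adjusted p = 0.0674). Fos was listed at 0 in mESC NPM, Fosb at 0 in mESC NPM and Ier2 at 0 in mOPC 1FA, so the sizes of these 3 depend on the prior count and are no bounds. The Fosb call was lost with voom weights (2.27, limma adjusted p = 0.083) and without 5 of the 10 libraries in turn (adjusted p 0.0534 to 0.141). Transcripts within 5 Mb of Egr1 had a median log2 fold change of 1.25 in mOPC NPM and 0.11 in mESC NPM, and the part of that region was not tested.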

How the results depend on the processing

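Over single genes, 623 values under alternatives kept direction and call, 75 lost the call, 15 gained it and 20 changed sign. Counting each pair once per library left 2 members called in mOPC against mESC 1FA (8 in the report), 1 in ActD4, 0 in mESC NPM, 2 in mOPC NPM and 0 between the NPM groups. Under this rule only these members passed the filter on low counts, and the others were not tested. Beyond 1 kb, 5 were called in mOPC NPM and 0 between the NPM groups. Without the filter, 2 were called in 2FA, 7 in ActD4 and 5 in mESC NPM. With the replicate block, 2 were called in 2FA, where 481 transcripts were called in place of 3 (2081 without the filter). The numbers pair no other groups, and there the block (Ier2 in ActD4 0.93, adjusted p = 0.0838, Ier2 in mESC NPM 0.61, 0.208, Fosb in mOPC NPM 1.08, 0.0141, Jund interaction 3.02, 0.0674) rests on a shared number. Without each library in turn, called members ranged from 6 to 8 (mOPC against mESC 1FA), 0 to 0 (2FA), 4 to 5 (ActD4), 0 to 2 (mESC NPM), 7 to 8 (mOPC NPM), 5 to 6 (between NPM groups) and 3 to 5 (interaction). The Egr1 rise within 1 kb ranged from 48.9 to 55.6 and its intron difference from −18.3 to −14.1.

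Values that changed sign were, in 2FA, Junb beyond 1 kb (0.06) and, without 1 library, Fos (range −0.85 to 0.81), Junb (−0.32 to 0.08), Jund (−0.93 to 0.32) and Atf3 (−0.61 to 0.34). In mESC NPM they were Junb (−4.11), Ier2 (−2.55) and Atf3 (−1.39) beyond 1 kb, where mESC NPM had 0 or 1 interaction of each, and Atf3 without 1 library (−0.25 to 1.48). Between NPM groups Junb ranged from −0.38 to 0.07 without 1 library. In the interaction, Fosl2 became −0.04 with voom weights and Jun 0.22 with the library total and −0.64 to 0.5 without 1 library. The cause was not tested.

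Scaling to the library total moved the median of all transcripts from −0.2 to −0.7 (mOPC against mESC 1FA), −0.29 to −0.1 (ActD4), 0.03 to 0.7 (mESC NPM), 0.34 to 1.12 (mOPC NPM) and 0.1 to −0.31 (between NPM groups). The share of calls that were higher moved from 45% to 32.4%, 34.6% to 43.1%, 46.6% to 81.3%, 57.7% to 90.7% and 54.5% to 38.9%. Pairs below the listing threshold are not seen, which limits genes with few interactions most.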
